A study of Mus musculus with 12 samples.

Results

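The SoxC genes Sox4, Sox11 and Sox12 were examined for H3K27ac, the acetylation of histone H3 found at promoters and enhancers in use, and for binding sites of GLI1, the zinc-finger transcription factor that activates Hedgehog target genes. They are 3 of the 21883 protein-coding genes in the annotation. Their surroundings were taken as the gene body with 400 kb on each side for Sox4 and Sox11, and with 50 kb on each side for Sox12. These windows held 160 of the 94481 H3K27ac regions and 15 of the 2605 GLI1 sites of the data set. The genes and the width of their windows were chosen by the H3K27ac fold enrichments and the GLI1 sites of these same lists, so all values given here are descriptions and none was tested.

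Doxycycline-treated cells, called dox cells here, received 500 ng/ml doxycycline for the last 24 h before harvest on day 6, which induced tagged GLI1. Control cells were harvested on the same day without treatment. Both carried the GLI1-FTA transgene in the A2Lox.cre strain of mouse embryonic stem cells and had been differentiated towards cardiac progenitors. The labels do not say whether the line is a single clone, and no doxycycline-treated line without the transgene was analysed here, so effects of the drug and of GLI1 cannot be told apart. Each of the 6 groups (GLI1 pulldown on streptavidin beads, H3K27ac immunoprecipitation and input, for dox and for control cells) held 2 samples. The authors pooled the pair before calling peaks, which leaves 1 H3K27ac list per condition and no spread between samples. GLI1 sites were listed for dox cells.

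SoxC proteins are transcription factors with an HMG-box DNA-binding domain and a C-terminal transactivation domain. They are known from progenitors and early differentiating cells of the nervous system and the mesenchyme. In mice, loss of Sox4 or of Sox11 disturbs formation of the cardiac outflow tract, while Sox12 is the weaker activator of the group and its loss is tolerated. All lie on the minus strand and are compact genes. Sox4 (gene 20677) occupies chr13:28948919-28953699, Sox11 (gene 20666) chr12:27334268-27342718 and Sox12 (gene 20667) chr2:152393611-152398046 in build mm10.

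An H3K27ac interval covered the annotated start of each gene in both lists, so the promoters are shown first. Each run holds 250 bases before the start and 50 after it, read 5′ to 3′ on the minus strand from RefSeq promoter sequences of GRCm38.p6, at chr13:28953650-28953949, chr12:27342669-27342968 and chr2:152397997-152398296. Capitals mark the CCAAT box, a common promoter element, in either orientation (CCAAT or ATTGG).
Sox4: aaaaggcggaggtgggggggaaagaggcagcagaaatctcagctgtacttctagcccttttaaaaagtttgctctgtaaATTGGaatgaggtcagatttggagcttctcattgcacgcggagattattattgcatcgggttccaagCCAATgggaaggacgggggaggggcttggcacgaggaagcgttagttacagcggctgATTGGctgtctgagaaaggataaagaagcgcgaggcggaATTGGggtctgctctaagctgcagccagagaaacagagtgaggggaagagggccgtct
Sox11: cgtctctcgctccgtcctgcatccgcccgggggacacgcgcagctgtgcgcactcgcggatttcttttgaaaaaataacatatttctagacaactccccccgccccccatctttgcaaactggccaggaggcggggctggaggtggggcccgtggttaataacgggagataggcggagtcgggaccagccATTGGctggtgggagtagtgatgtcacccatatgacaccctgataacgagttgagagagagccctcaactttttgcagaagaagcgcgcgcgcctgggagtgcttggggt
Sox12: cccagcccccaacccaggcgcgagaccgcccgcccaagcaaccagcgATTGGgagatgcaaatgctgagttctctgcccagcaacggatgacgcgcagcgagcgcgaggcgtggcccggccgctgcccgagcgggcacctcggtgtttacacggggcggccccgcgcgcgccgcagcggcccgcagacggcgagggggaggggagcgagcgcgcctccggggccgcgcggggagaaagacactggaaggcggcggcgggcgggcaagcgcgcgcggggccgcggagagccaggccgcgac
The Sox4 promoter held 4 such boxes, and the promoters of Sox11 and Sox12 held 1 each. Among all 32851 promoters of the same length, 37.4% held at least 1. GC content was 52% for Sox4, 58.7% for Sox11 and 76.7% for Sox12, against a median of 52.7% over all promoters. The GLI consensus GACCACCCA, searched on both strands, occurred in none of the 3 sequences and in 0.253% of all promoters. Its shorter core CCACCC was likewise found in none of the 3, and in 31.5% of all promoters. No GLI1 site lay within 10 kb of any of the starts.

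H3K27ac was strong at all 3 genes in both conditions, and its highest value was larger in dox cells by less than 2-fold. Levels are the highest fold enrichment (the authors' ratio of the ChIP pileup at a summit to its local background) among regions within 1000 bp of a gene's ends. Sox12 had 39.0 in dox cells and 36.1 in control cells. Sox4 had 34.8 in dox cells and 25.6 in control cells. Sox11 had 32.8 in dox cells and 20.5 in control cells. In both lists the order was therefore Sox12, Sox4, Sox11, and the gap between the genes was wider in control cells.

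The pileups behind these values were whole read counts recovered from the lists, and their exact 95% Poisson intervals cover counting error alone. In dox cells they were 180 reads for Sox12 (155 to 208), 160 for Sox4 (136 to 187) and 151 for Sox11 (128 to 177), which overlap. In control cells they were 146 reads for Sox12 (123 to 172), 101 for Sox4 (82.3 to 123) and 82 for Sox11 (65.2 to 102). The control intervals of Sox4 and Sox11 overlap, and that of Sox12 lies above Sox11's and, narrowly, above Sox4's. Of the 9849 genes with a region at their ends in both lists, 96.8% were at or below Sox12 in dox cells, 93.7% at or below Sox4 and 92.0% at or below Sox11. In control cells these shares were 95.7%, 82.9% and 70.6%.

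Relative to all shared regions, the log2 ratio of dox over control fold enrichment was 0.81 at Sox11, 0.58 at Sox4 and 0.24 at Sox12. Ratios were centred on the median of all regions present in both lists, which was −0.13 before centring, and a size of 1 is used as the limit for calling a region or gene higher or lower. None of the 3 genes reached it. Over all 9849 genes, 3.77% had a log2 ratio of at least 1 and 2.04% had −1 or less, and the median was 0.14. The ratio of Sox11 was at or above that of 92.8% of these genes, that of Sox4 at or above 84.1% and that of Sox12 at or above 59.2%. From the pileups, scaled for depth and centred the same way, the log2 ratio was 0.79 for Sox11 (95% counting interval 0.39 to 1.19), 0.57 for Sox4 (0.20 to 0.94) and 0.21 for Sox12 (−0.11 to 0.53). Means over intervals weighted by their width gave 0.89 for Sox11, 0.58 for Sox4 and 0.80 for Sox12, so the order of Sox4 and Sox12 depended on the measure. Each interval enters these means with its highest summit. The Sox12 region was 1 interval in the dox list and 3 in the control list. These counts were 1 and 2 at Sox11 and 1 and 1 at Sox4. Whether more cells carried the mark or each cell carried more of it cannot be told apart in these bulk samples.

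The difference was spread unevenly along each gene, and by fold enrichment most so at Sox11. Summits of both lists in and around each gene that lay within 200 bp of each other were paired. Around Sox11, 8 pairs had a median log2 ratio of 1.47, ranging between 0.24 and 2.40, and 5 of the 8 were at least 1. By pileups the median was 1.17, the range 0.32 to 1.62, and 5 were again at least 1. Over the 68628 pairs of the genome, 7.39% were at least 1 and the median was −0.03. The highest control summit of Sox11, at 20.5, lay 607 bp upstream of the start, and the dox summit there reached 22.1. Downstream of the start the lists diverged, though not equally at all pairs. At 3101 bp fold enrichment was 19.9 in dox cells and 14.4 in control cells (0.60). At 4994 bp it was 4.54 in dox cells and 3.75 in control cells (0.41, pileup interval −0.72 to 1.39). A control summit of 15.9 (60 reads) at 368 bp had no dox summit within 200 bp and was left unpaired. At 659 bp, the dox summit was 32.8 and the control summit 11.8, a log2 ratio of 1.61 (pileups gave 1.19, interval 0.76 to 1.64). At 1309 bp, fold enrichment was 32.2 in dox cells and 13.3 in control cells, and at 1916 bp it was 21.0 in dox cells and 4.34 in control cells. The fold enrichments at 1916 bp gave a log2 ratio of 2.40, but the pileups of 96 reads in dox cells and 34 in control cells gave 1.40 (interval 0.83 to 2.01), so its size depended on the measure. It also depended on the pairing, since a stronger control summit of 8.28 (37 reads) at 2086 bp, within 200 bp too, was left unpaired. Likewise the dox summit of 18.6 at 3738 bp was paired with a control summit of 7.05, leaving one of 10.4 at 3608 bp unpaired. A further summit 1004 bp upstream measured 24.0 in dox cells and 8.28 in control cells. The ratio of 0.81 for the gene as a whole thus set dox and control maxima at different positions against each other.

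At Sox4 the increase was smaller than at Sox11 and, by fold enrichment, more even. Its 10 summit pairs had a median log2 ratio of 0.52 (lowest −0.18, highest 1.36), 9 of them above 0 and 2 at least 1. By pileups the median was 0.39, with 8 above 0 and 2 at least 1. The pileup range of −0.37 to 1.57 was wider than that of Sox11, so which gene was more even depended on the measure. Both lowest ratios lay outside the gene, the −0.37 at 4748 bp upstream and the −0.18 at 5276 bp, past the gene's length of 4781 bp. At 537 bp into the gene, fold enrichment was 34.8 in dox cells and 25.2 in control cells. At 1444 bp it was 27.9 in dox cells and 15.0 in control cells, whereas at 2649 bp, near the middle of the gene, it was 27.2 in dox cells and 25.6 in control cells. The ratio of 0.58 for Sox4 as a whole thus set the dox maximum at 537 bp against the control maximum at 2649 bp. Pileups of the paired summits gave 0.60 at 537 bp (interval 0.23 to 0.98) and 0.21 at 2649 bp (−0.18 to 0.61). A separate region 4.8 kb upstream had 18.6 in dox cells and 15.0 in control cells by fold enrichment. Its pileups were 86 reads in dox cells and 104 in control cells and gave a log2 ratio of −0.37 (interval −0.80 to 0.06), so its direction depended on the measure.

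Around Sox12, 6 summit pairs had a median log2 ratio of 0.60 (0.20 to 0.79), all above 0 and none at least 1. By pileups the median was 0.25, all 6 again above 0, so the median of Sox12 was above that of Sox4 by fold enrichment and below it by pileups. Its strongest summit lay 1002 bp inside the gene, with 39.0 in dox cells and 36.1 in control cells. Upstream, at 1269 bp, the values were 16.2 in dox cells and 11.03 in control cells, the only pair at this gene whose pileup interval lay above 0 (0.85, 0.35 to 1.36). The same was true of 5 of 10 pairs at Sox4 and 7 of 8 at Sox11.

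**Figure D1:**
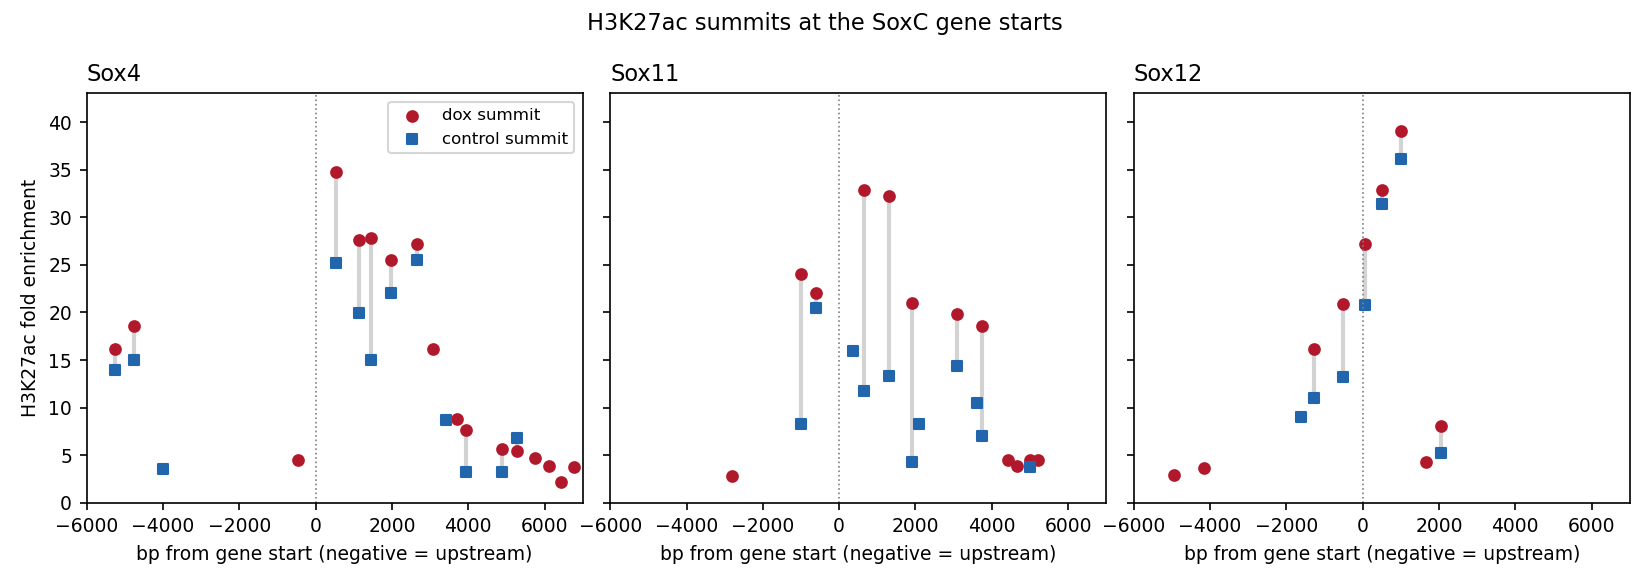
Fold enrichment of each H3K27ac summit (y axis) against its distance in bp from the gene start (x axis, negative upstream) for Sox4, Sox11 and Sox12; circles are dox summits, squares control summits, and grey lines join summits within 200 bp. The longest lines are at Sox11, where the dox summit of 32.8 stands 659 bp downstream over a control summit of 11.8, while the paired summits of Sox12 lie close together.

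No GLI1 site lay within 100 kb of Sox4 or Sox11, and the sites counted for Sox12 are those of its narrower window. Within its window, Sox4 had 9 sites, and 35 of all genes (0.16%) had as many within 400 kb. Sox11 had 4, a number reached by 6.42% of genes, while 51.2% of genes had at least 1 within that distance. Sox12 had 2 within 50 kb, as did 3.2% of genes, and 4 within 400 kb, the same number as Sox11. Because the genes and windows were chosen by these same sites, nothing is read from these shares. Each site is a window of 101 bp around a summit, which the list's name describes as found in both replicates and containing a Gli motif. The distance from the gene to the nearest and the farthest site inside the window was 127.5 and 393.9 kb for Sox4, 114.9 and 274.4 kb for Sox11, and 13.1 and 13.6 kb for Sox12. Outside the windows, the next site was 658.6 kb from Sox4, 444.2 kb from Sox11 and 337.2 kb from Sox12.

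**Figure D2:**
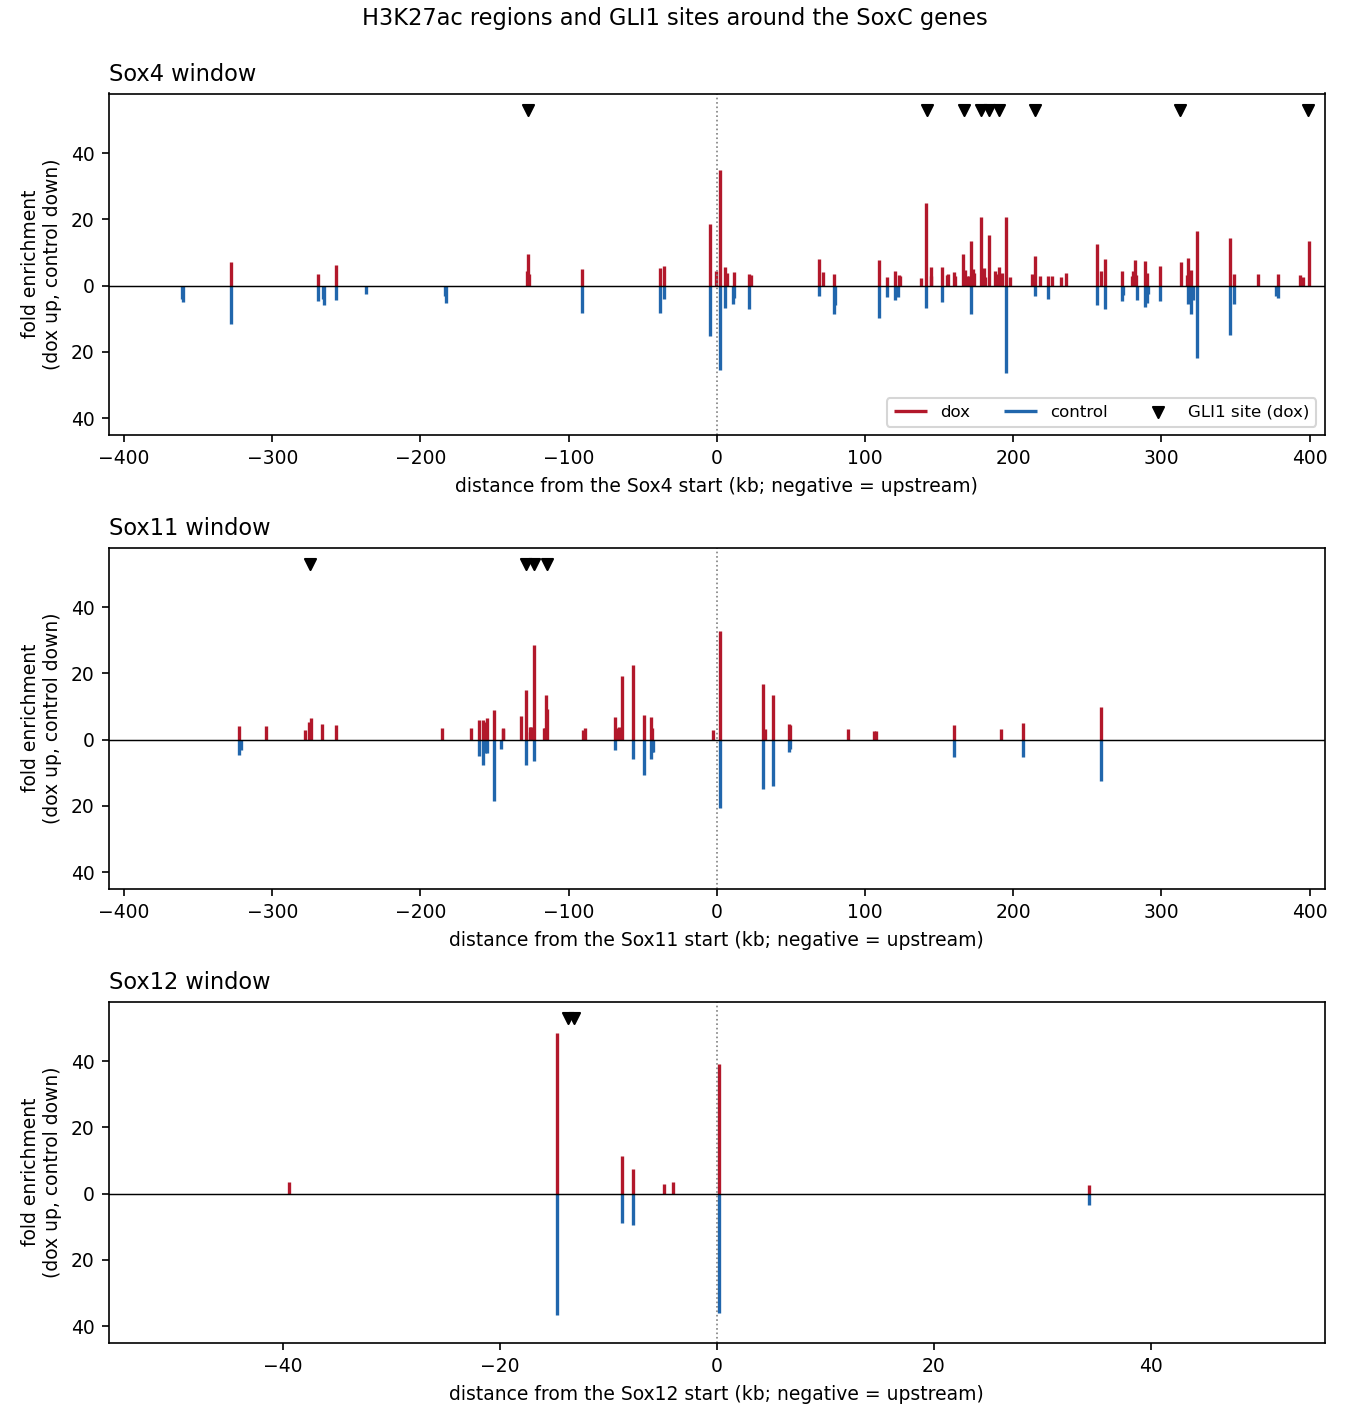
H3K27ac regions as vertical bars at their distance in kb from the gene start (x axis, negative upstream), with fold enrichment in dox cells drawn upwards and in control cells downwards (y axis); triangles mark GLI1 sites of dox cells. The Sox4 sites gather on the downstream side, those of Sox11 on the upstream side, and both Sox12 sites lie in the strong region centred 14.7 kb upstream, where dox reached 48.6 and control 36.6.

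Downstream of Sox4, 8 of its 9 sites lay between chr13:28554962 and chr13:28811781, a stretch without a protein-coding gene. All 8 were inside the long noncoding RNA gene 2610307P16Rik, which also runs on the minus strand. The strongest GLI1 site, 178.3 kb from the Sox4 start, had a −log10 q of 122.9 and stood at the 91.1st percentile of all sites. Its region was present in the dox list alone, at a fold enrichment of 20.9. A site of almost equal strength (−log10 q 114.5), at the far end 398.7 kb from the start, lay in a dox-only region of 13.4. Another at 183.8 kb (−log10 q 67.2) lay in a dox-only region of 15.4.

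The cluster site nearest to Sox4, at 142.0 kb, was in a region of both lists with 24.8 in dox cells and 6.79 in control cells, a log2 ratio of 2.00 (pileups 114 and 27 reads, giving 1.98, interval 1.37 to 2.65). The site at 214.9 kb was in a weaker shared region with 8.86 in dox cells and 3.12 in control cells (1.64). These are the only 2 of the 8 regions that the control list holds. The remaining sites, at 166.97, 190.4 and 312.7 kb, were in dox-only regions of 4.68, 5.65 and 7.07. The site at 166.97 kb also lay 9 bp from a separate dox-only region of 9.43. Upstream of Sox4, the single site at 127.6 kb lay in a dox-only region of 9.45.

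All 4 sites of Sox11 were upstream and between genes. The site at 123.2 kb was the strongest, with a −log10 q of 99.1, and lay in a shared region with 28.5 in dox cells and 6.54 in control cells. By summit fold enrichment, this log2 ratio of 2.26 was the highest of the 59 shared regions in the 3 windows, though not by pileups or by means over intervals weighted by their width. Its pileups were 131 reads in dox cells and 29 in control cells (2.08, interval 1.49 to 2.72). The neighbouring site at 129.0 kb lay in a shared region with 15.0 in dox cells and 7.57 in control cells (1.12). The other sites, at 114.9 and 274.4 kb, were in dox-only regions of 13.6 and 6.48.

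Near Sox12, the sites at 13.2 and 13.7 kb upstream were both in a shared region with 48.6 in dox cells and 36.6 in control cells, a log2 ratio of 0.54. This region also covers Zcchc3, a zinc-finger protein gene, and an end of 6820408C15Rik, so its signal cannot be assigned to Sox12. Its profile differed between the lists. The summit between the sites was 24.9 in dox cells and 34.5 in control cells, and the summit on the side facing Sox12 was 48.6 in dox cells and 25 in control cells. The sites themselves were of low rank, at the 12.5th and 35.8th percentile of −log10 q.

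All 15 sites overlapped a dox H3K27ac peak, compared with 75% of all 2605 sites. The windows were chosen by these sites and this acetylation, and neighbouring sites share regions, so nothing is read from these shares. A control peak covered 6 of the 15, compared with 25% of all sites, and 9 were covered in dox cells alone, compared with 50.6%. At most of these sites, as at most of all 2605 sites, dox summits stood on both sides of the centre. Of the 15 sites, 14 had a dox summit within 600 bp on both sides (75.7% of all sites), and 6 had control summits placed in this way (19.7%). A dox summit within 100 bp of the centre was found at 1 site (6.6% of all sites), the one 190.4 kb downstream of Sox4. At the strongest Sox4 site the flanking dox summits were 341 bp to one side and 385 bp to the other, at 10.8 and 20.9, and the nearest control summit was 6422 bp away. At the strongest Sox11 site the dox summits were 400 and 324 bp away, at 28.5 and 20.8, and the control summits 112 and 275 bp away, at 4.30 and 6.54.

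**Figure D3:**
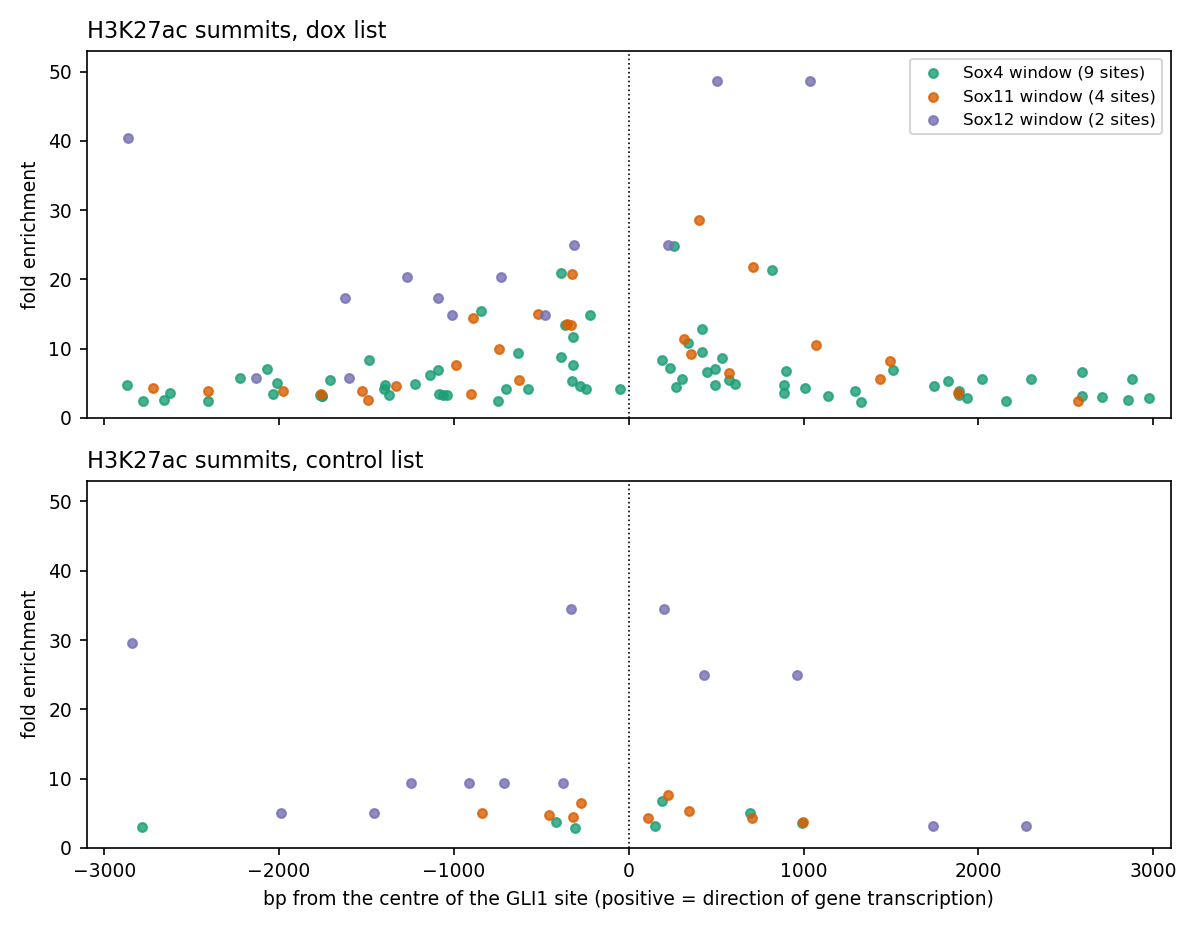
H3K27ac summits within 3 kb of the 15 GLI1 sites, by distance in bp from the centre of the site (x axis, positive in the direction of gene transcription) and fold enrichment (y axis), with dox cells above and control cells below. Dox summits flank the centre within 600 bp on both sides at 14 sites, control summits at 6; summits near both Sox12 sites are drawn for each site.

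Counting all regions, with or without a site, the windows of Sox4 and Sox11 held more regions of the dox list alone than of the control list alone. Of the 98 regions around Sox4, 49 were in the dox list alone, 16 in the control list alone and 33 in both. Of the 54 around Sox11, 30 were in the dox list alone, 3 in the control list alone and 21 in both. Sox12 had 8 regions, 3 of them dox-only, none control-only and 5 shared. Together, 51.2% were dox-only (82 of 160) and 11.9% control-only, while over all regions of the genome 35.5% were dox-only and 27.1% control-only. Of the 160 regions, 62 lie in the Sox4 site cluster that the choice of windows included, so nothing is read from the gap to the genome. Acetylated sequence amounted to 99574 bp in dox cells and 56072 bp in control cells around Sox4, 56011 bp in dox cells and 37386 bp in control cells around Sox11, and 14866 bp in dox cells and 12411 bp in control cells around Sox12. A region missing from a list fell short of the caller's threshold there and need not lack the mark, since control summits were listed down to a fold enrichment of 1.85 and down to 9 reads. The dox pool was also deeper, by a factor of 1.28. With dox pileups scaled to the control depth, dox-only regions numbered 47 around Sox4, 29 around Sox11 and 3 around Sox12.

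Most dox-only regions around Sox4 lay on the side of its site cluster. Downstream of the start, 45 of 80 regions were dox-only and 9 control-only. Upstream, 4 of 18 were dox-only and 7 control-only. Within the cluster itself, 39 of 62 regions were dox-only, 6 control-only and 17 shared. Elsewhere in the window 10 of 36 were dox-only and 10 control-only, and the 16 shared regions there had a median log2 ratio of −0.15. Around Sox11, the upstream side held all 4 sites and had 25 dox-only and 3 control-only among 41 regions, and the downstream side had 5 dox-only and no control-only among 13. In the stretch between 161.0 and 321.1 kb upstream of Sox11 the control list skips 1 peak number, so a control peak may be missing there. That stretch holds 8 of the 30 dox-only regions, including the one with the site at 274.4 kb, and the other 22 lie outside it.

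Regions within 10 kb of a site were dox-only in 46 of 61 cases (75.4%), with 2 control-only. Across the genome 65.6% of regions this near to a site were dox-only and 7.74% control-only. Farther from a site, 36 of the 99 SoxC regions were dox-only (36.4%) and 17 control-only, while the genome had 32.4% dox-only and 29.1% control-only. Near sites the count was 32 of 42 around Sox4, 12 of 14 around Sox11 and 2 of 5 around Sox12. Farther from a site, Sox4 had 17 dox-only (30.4%) and 14 control-only among 56 regions. Sox11 there had 18 dox-only (45%) and 3 control-only among 40, and Sox12 had 1 dox-only and 0 control-only among 3.

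Among the 59 shared regions, 8 had a log2 ratio of at least 1, compared with 6.78% of all shared regions, and 1 had −1 or less, compared with 8.31%. Medians were 0.10 over 33 regions around Sox4 (−1.12 to 2.00), 0.36 over 21 around Sox11 (−0.93 to 2.26) and 0.24 over 5 around Sox12 (−0.30 to 0.54). Of the 8 regions, 4 were around Sox4 and 4 around Sox11, and 4 of them held a GLI1 site.

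Large ratios also occurred in regions without a site. A shared region 56.4 kb upstream of Sox11 had 22.4 in dox cells and 5.74 in control cells (2.1; pileups 113 and 21 reads, 2.33, interval 1.65 to 3.08), at 57.5 kb from the nearest site. Next to it, 64.1 kb upstream, a dox-only region reached 19.2, with 50.2 kb to the nearest site. Around Sox4, a region 256.7 kb downstream and 40 kb from a site had 12.5 in dox cells and 5.80 in control cells (1.24). Other strong regions had lower fold enrichment in dox cells. At 195.3 kb downstream of Sox4, inside the cluster and 2.4 kb from a site, fold enrichment was 20.8 in dox cells and 26.3 in control cells (−0.20), but its pileups of 117 reads in dox cells and 102 in control cells gave 0.10 (interval −0.29 to 0.50). At 324.1 kb fold enrichment was 16.6 in dox cells and 21.9 in control cells (−0.27). Its pileups of 82 reads in dox cells and 83 in control cells gave −0.11 (interval −0.57 to 0.35). The region 150.5 kb upstream of Sox11 had 8.86 in dox cells and 18.5 in control cells, a log2 ratio of −0.93 (pileup interval −1.50 to −0.32). The only region past −1 was a weak one 79.1 kb downstream of Sox4, with 3.63 in dox cells and 8.62 in control cells (−1.12).

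**Figure D4:**
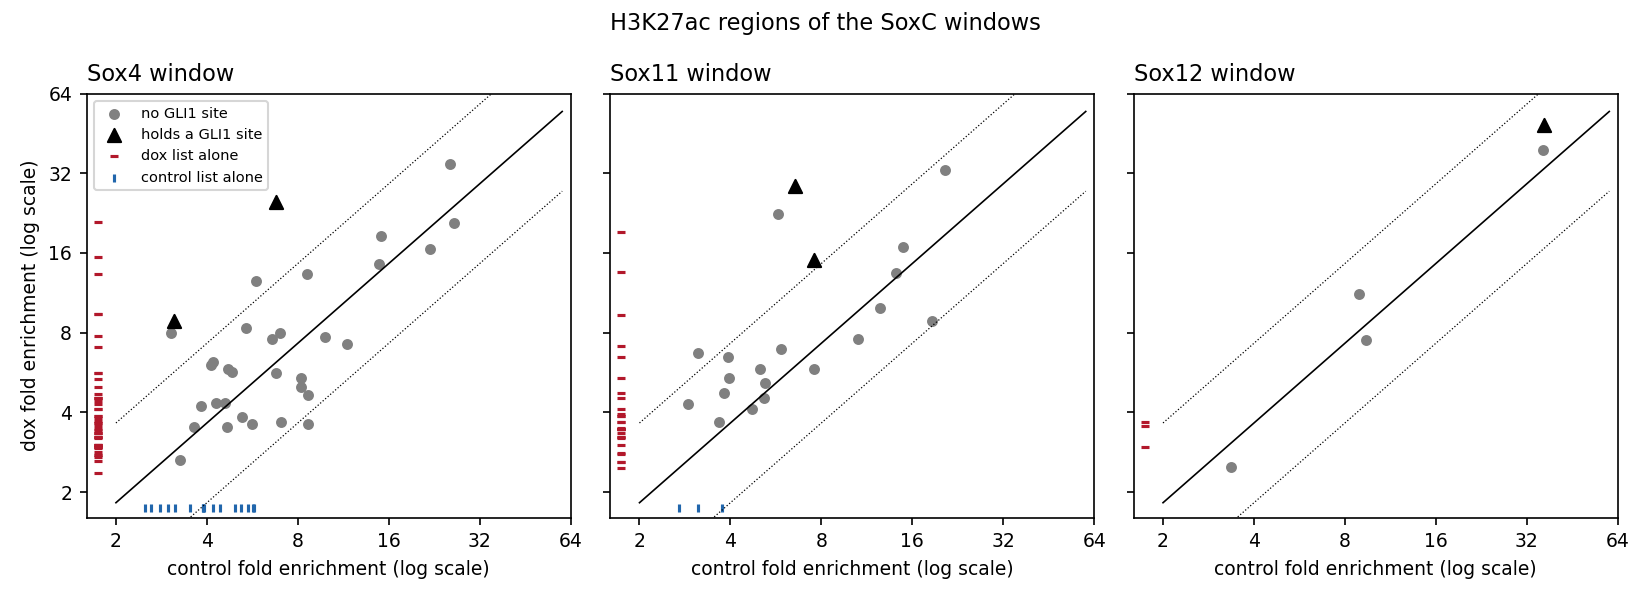
Dox fold enrichment (y axis, log scale) against control fold enrichment (x axis, log scale) of the regions in each window; triangles hold a GLI1 site, circles hold none, and ticks along the axes are regions of a single list. The solid line is the centre of all shared regions and dotted lines are log2 ratios of 1 and −1; the triangles of Sox4 and Sox11 lie above the upper line, while that of Sox12 lies at 0.54.

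The long noncoding RNA 2610307P16Rik, singled out after its values were seen, spans chr13:28460034-28885422 and holds all 8 cluster sites. Its start lies 63.5 kb from the end of Sox4. The region at its start had 8.01 in dox cells and 3.05 in control cells, a log2 ratio of 1.53 (pileups 40 and 11 reads, 1.77, interval 0.78 to 2.88). The dox interval covered the start, while the control interval lay 88 bp from it. The nearest GLI1 site was 73.7 kb from that start.

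Among the 16 other Sox genes examined, 7 had a region at their ends in both lists, Sox6 had one in the dox list alone (4.83), and 8 had none. Of all 20463 genes analysed, 9849 had a region in both lists, 603 (2.95%) in the dox list alone and 9560 in neither. Sox18, a regulator of endothelial and lymphatic development, had 33.1 in dox cells and 3.56 in control cells (3.35), with 2 GLI1 sites within 50 kb. Sox5, a SoxD factor of cartilage and neural development, had 13.4 in dox cells and 4.37 in control cells (1.75). Its 4 sites were counted over its long gene body (chr6:143828425-144782287) with 50 kb on each side. By summit fold enrichment at gene ends, these 2 were the only genes of the list at 1 or more, compared with 3.77% of the 9849 genes. Width-weighted means added Sox9, and whole gene bodies left Sox18 alone. The chondrogenic factor Sox9 had 12.8 in dox cells and 8.70 in control cells (0.69), and Sox13, another SoxD gene, 9.72 in dox cells and 12.1 in control cells (−0.18). The SoxB1 gene Sox2 had 7.99 in dox cells and 7.70 in control cells (0.19). Sox8, a SoxE gene, had 8.66 in dox cells and 6.51 in control cells (0.54, from different regions), and Sox15 had 4.59 in dox cells and 4.22 in control cells (0.25). In dox cells Sox18 alone among them reached the level of a SoxC gene, and in control cells none did, the highest being Sox13.

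Of 6 genes reported as SoxC targets, 3 had a region in both lists, as did 9849 of all 20463 genes analysed. None of the 3 passed 1 in size, while 3.77% of the 9849 had at least 1 and 2.04% had −1 or less. The Hippo pathway factor Tead2 had 39.1 in dox cells and 36.6 in control cells (0.23), the noncanonical Wnt ligand Wnt5a 23.7 in dox cells and 16.4 in control cells (0.66), and the histone methyltransferase Ezh2 26.6 in dox cells and 26.5 in control cells (0.13). No region was at the ends of the neuronal genes Tubb3, Dcx and Neurod1 in either list. Among protein-coding neighbours in the windows, Cdkal1 near Sox4 had 15.6 in dox cells and 14.8 in control cells (0.21), at the gene end outside the window, and Trib3 and Nrsn2 near Sox12 had no region at their ends.

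**Figure D5:**
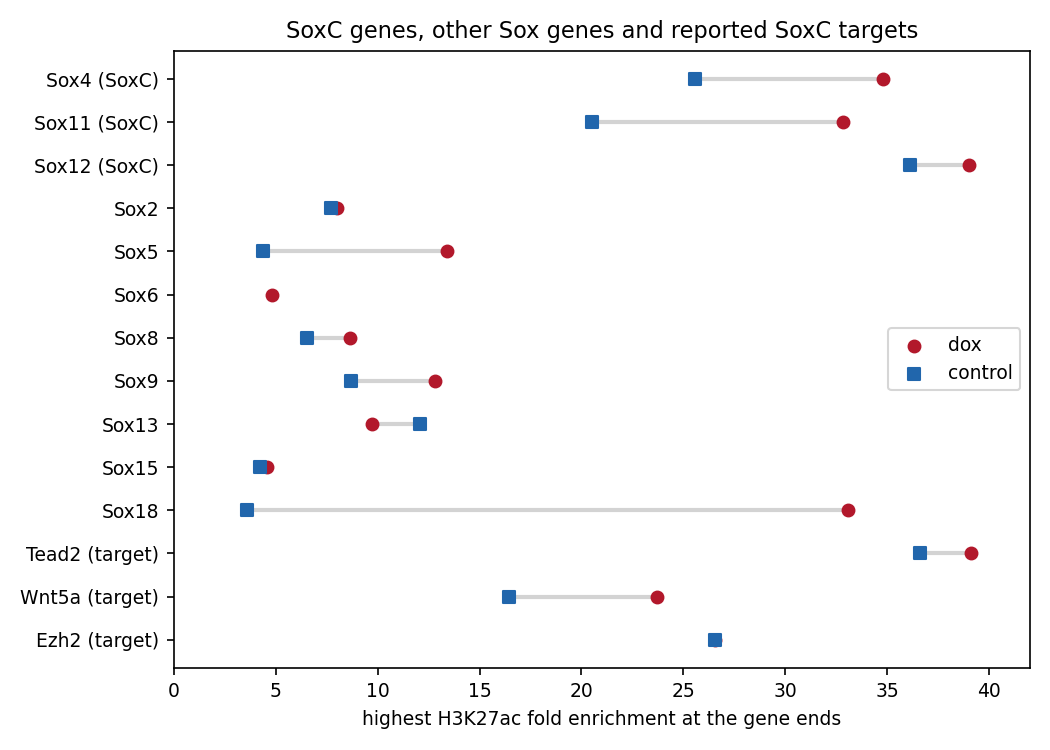
Highest H3K27ac fold enrichment at the gene ends (x axis) in dox cells (circles) and control cells (squares) for the SoxC genes, the other Sox genes with a region in either list, and the reported SoxC targets with one. Sox18 has the longest line, 33.1 in dox cells over 3.56 in control cells, and Sox12 and Tead2 lie farthest to the right in both conditions.

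The genes most like each SoxC gene in their pair of levels were found by Euclidean distance of log2 fold enrichment over the 2 conditions. They were Pds5a, Rps23 and H3f3a for Sox4 (distances 0.016 to 0.024), Bicral, Tbcc and Cdkn1b for Sox11 (0.023 to 0.026) and Tead2, Rpl23 and Rdh10 for Sox12 (0.018 to 0.026). Bicral and Tbcc take their values from the same region.

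The cell type label was checked against markers at gene ends. Of 6 cardiac progenitor genes, Isl1 had 21.0 in dox cells and 20.2 in control cells and Hand2 10.8 in dox cells and 24.5 in control cells (−1.05), while Nkx2-5, Gata4, Mef2c and Tbx5 had no region in either list. Of 3 cardiomyocyte genes, Tnnt2 had 3.74 in dox cells and 10.4 in control cells (−1.35), and Actc1 and Myl7 were in the control list alone. The neural markers Sox1, Pax6 and Tubb3 had none, and Neurog2 was not analysed. Of the endothelial markers, Pecam1 had 11.2 in dox cells and 11.7 in control cells (0.07), Kdr had a dox region of 2.82 and Sox17 had none, beside the high value of Sox18. Of the pluripotency genes, Nanog had 7.87 in dox cells and 12.8 in control cells (−0.57), Sox2 had a log2 ratio of 0.19 as above, and Pou5f1 had no region. The part of these differences in the SoxC values was not tested.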

How the data were processed

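H3K27ac and tagged GLI1 were profiled by ChIP-seq, with input, in dox and control cells (2 samples per group). The submitters' processing notes name MACS2 2.1.1, SAMtools 1.5, Bowtie2 2.3.2 and build mm10, with no role given. Per the deposited names, replicates were pooled and blacklisted and mitochondrial peaks removed. The deposited H3K27ac values are a fold enrichment (ratio), a −log10 p, a −log10 q (lowest 1.33 for dox, 1.31 for control) and a score that is a multiple of the −log10 q. The deposited GLI1 list gives a −log10 q per window. Input samples and the GLI1 pulldown of control cells have no list analysed here.

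Intervals of both lists sharing at least 1 bp were merged into 94481 regions: 33496 dox-only, 35389 shared and 25596 control-only. Pileups were recovered as whole numbers that return each summit's fold enrichment and −log10 p (tolerance 0.01) for 99.92% of dox and 99.96% of control summits. Read totals are unknown; the uniform background was 3.63 reads for dox and 2.83 for control, whose ratio of 1.28 was taken as the ratio of depth. Ratio intervals are exact conditional binomial and cover counting error only. Peak numbers skip in 694 stretches, and 1420 genes with an end there were not analysed. Scripts used Python 3.11.15, SciPy 1.17.1 and pandas 2.3.3 and were checked on simulated data.

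The members, windows and gene lists were chosen with earlier results of these data known. Named were the SoxC genes, protein-coding genes in their windows, the Sox family and SoxC target lists, regions with a site, regions that ranked among the 5 strongest or most shifted of a window, and the 3 genes nearest to each member in level. With 1 pooled list per condition no test was made. Alternatives were another centring, width-weighted means, pileups, gene bodies, stricter q, larger overlap, scaled depth and narrower windows.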

Additional observations from a re-analysis of the deposited data

How the results depend on the processing

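Of 64 alternative values, 57 stayed within the limit set for each, 7 moved and none reversed among called values. With GLI1 sites restricted to the upper part of the list by −log10 q (above its median of 30.8), Sox4 kept 5 of 9 sites, Sox11 1 of 4 and Sox12 0 of 2. With peaks of −log10 q of at least 10, dox-only regions around Sox12 fell to 0% of 4 regions, against 37.5% of 8 as deposited; Sox4 then had 17 dox-only, 8 control-only and 15 shared regions and Sox11 10, 0 and 11, while over all regions 26.2% were dox-only and 23.5% control-only at that limit. Weighting summits by interval width, over 1 dox and 3 control intervals at Sox12, gave 0.80 there, against 0.24, which put Sox12 above Sox4 (0.58). It also gave a median of 2.01 over the site regions of the Sox4 cluster, against 1.82, a median that rests on 2 shared regions. Taking whole gene bodies left 1 gene of the Sox family and target lists at a log2 ratio of 1 or more (Sox18), against 2, and width-weighted means raised the count to 3 by adding Sox9. Without centring, the median around Sox4 was −0.03, against 0.10, so its sign depends on the centring. No paired analysis was possible because the authors' lists pool both replicates of a group, and for the same reason no replicate could be left out. The cause of each shift was not tested. Scaling dox pileups to the control depth moved dox-only counts to 47 around Sox4, against 49, to 29 around Sox11, against 30, and left 3 around Sox12.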
